A study of Mus musculus with 6 samples.

Results

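The 8 genes described here are those of the thyroid hormone receptor axis and its partner Hairless: the receptors Thra and Thrb, the corepressor Hr (Hairless), the deiodinases Dio2 and Dio3, the transporter Slco1c1, the hormone-binding protein Crym and the response gene Klf9. They were taken by gene symbol from 17645 genes listed in at least 1 library. They were chosen from genes whose levels in these libraries were already known, Thra also because it overlaps Nr1d1, so their values are a description and carry no p-value.

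Thyroid hormone enters the brain mainly as the prohormone T4, is converted there to the active hormone T3, and acts through nuclear receptors that sit on DNA with or without hormone. Without hormone the receptors recruit corepressors, and with T3 they exchange them for coactivators. In the hypothalamus, local control of T3 by the deiodinases is best known for its part in seasonal timing, and the receptor gene Thra shares its 3′ end with Nr1d1, which encodes the clock repressor REV-ERBα on the other strand.

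RNA came from the suprachiasmatic nucleus (SCN), the hypothalamic seat of the central circadian clock, punched from frozen brain sections of C57BL/6 females that were killed in the dark, 12 to 14 h after lights on. The r1r2V group (replicates 1, 4 and 5) was read from the series title as the knockout of both Rev-erb genes, Nr1d1 and Nr1d2, in GABAergic neurons, which make up most of the SCN. The V group (replicates 2, 3 and 4) was read as its control. The 3 libraries of each group were each made from RNA pooled over 2 SCN. The labels used here give no age, Cre driver, deleted exon or control genotype, and do not say whether pools came from separate animals, so a p-value here reflects only the spread among these samples, which may be technical.

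The libraries held 17040698 to 17566335 expected counts in r1r2V and 15729603 to 17780928 in V. All 9 SCN neuron markers were listed in every library, with a summed level of 949 to 1050 CPM (counts scaled to the size of the library, TMM-corrected) in r1r2V and 1015 to 1099 CPM in V. The targeted genes were not lower in r1r2V: Nr1d1 stood at 196, 157 and 147 CPM in r1r2V and 56.7, 62.5 and 57.0 CPM in V, and Nr1d2 at 229, 275 and 222 CPM in r1r2V and 177, 179 and 168 CPM in V. Gene totals cover all exons, so they do not check a deletion of some of them, and the groups are named here as their libraries are labelled. Libraries stood apart in both groups. In r1r2V replicate 5, the 5 meningeal fibroblast markers summed to 77.4 CPM, against 41.1 and 49.8 CPM in the other r1r2V libraries and 39.3 to 46.0 CPM in V. In the same library Pmch, a marker of lateral hypothalamic neurons, was at 581 CPM, against 16.8 and 1.67 CPM in the other r1r2V libraries and 12.4, 214 and 23.3 CPM in V. All 7 markers of neighbouring hypothalamic neurons, Pmch among them, summed to 722.5, 545.1 and 1508 CPM in r1r2V and 1011, 1273 and 1045 CPM in V, and the groups overlap. The other 6, with Pmch left out after its values were seen, summed to 706, 544 and 927 CPM in r1r2V and 998.6, 1059 and 1022 CPM in V. Every r1r2V library was below every V library in that smaller sum, but the groups overlap for each of its genes alone. Vip, a marker of SCN core neurons, was at 50.5, 72.0 and 11.4 CPM in r1r2V and 85.8, 53.0 and 51.8 CPM in V, lowest in r1r2V replicate 5. In V replicate 3, Pomc, a marker of arcuate neurons, was at 303 CPM, against 5.42 and 22.7 CPM in the other V libraries and 23.7, 2.76 and 68.8 CPM in r1r2V. Pomc is part of the 1059 CPM given above for V replicate 3. The part of these markers in the results below was not tested.

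Of the 8 genes, Hr was higher and Thra was lower in r1r2V, and the other 6 did not pass the threshold in either direction. A gene was called where edgeR's quasi-likelihood test gave an adjusted p (Benjamini-Hochberg, over the 14438 genes that passed a filter on low counts) of 0.05 or less, and all 8 passed that filter. Over all genes tested 60 were called, or 0.416%, with 43 higher (0.298%) and 17 lower (0.118%). Without any 1 of the V libraries, 19 to 20 were called higher and 7 to 8 lower. Libraries of the groups did not overlap for 2 of the 8 genes, Thra and Hr, and for 14.5% of all genes tested. The median log2 fold change, r1r2V minus V, was -0.09 over the 8 genes and 0.01 over all genes tested. Nothing is read from these shares, since the genes were chosen with this comparison known.

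**Figure D1:**
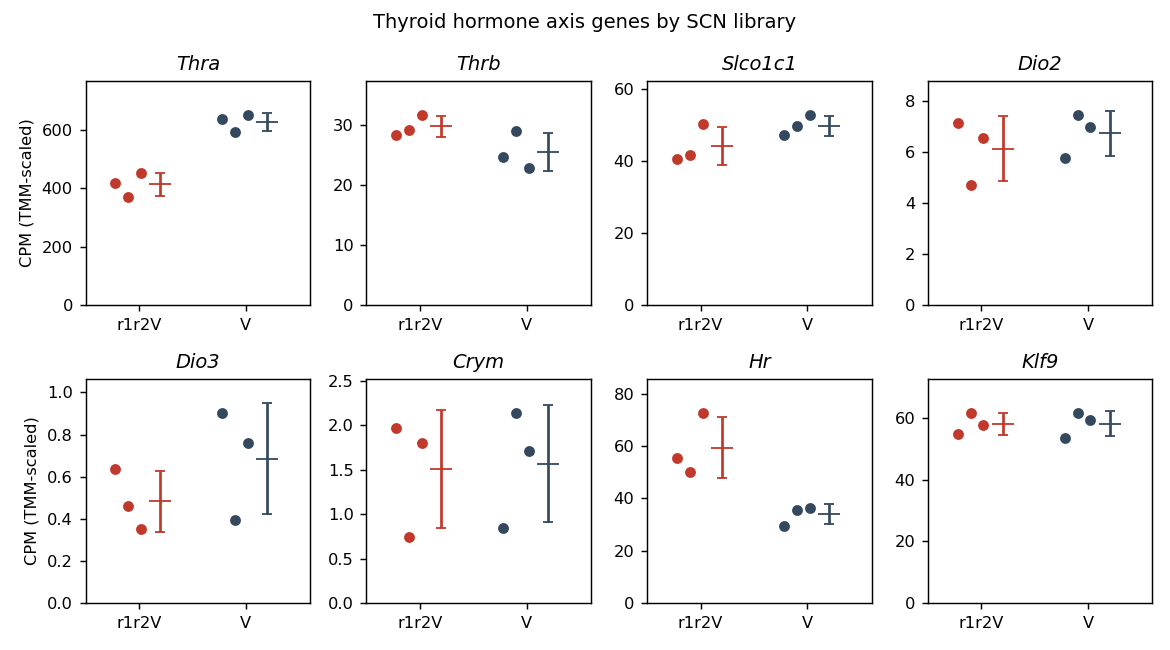
Level of each of the 8 genes in CPM (y axis, each panel from 0) in the 3 r1r2V libraries (red, left) and the 3 V libraries (dark, right), with the mean and SD beside the points. All 3 r1r2V points lie below all 3 V points for Thra and above them for Hr, and the points of the groups overlap for the other 6 genes.

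Thra encodes TRα, the main thyroid hormone receptor of the brain. It had 418, 371 and 451 CPM in the r1r2V libraries and 638, 594 and 650 CPM in the V libraries. Every r1r2V library was below every V library. The mean fell to 413 ± 40.0 CPM in r1r2V, against 627 ± 29.6 CPM in V (SD, n = 3 each), a log2 fold change of -0.60 (SE 0.08), or 0.659 of the V level. Without replicate 5 of r1r2V the log2 fold change was -0.67, and without V replicate 3 it was -0.64, both called. The call of Thra was lost without V replicate 2 (-0.59) and without V replicate 4 (-0.58). In bulk RNA, fewer cells of a type and less RNA per cell cannot be told apart, here and for every gene below.

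The value of Thra is bound to that of Nr1d1, because both genes are transcribed through the same stretch of chromosome 11. In the RefSeq annotation of GRCm38.p6, Thra lies at chr11:98740776-98769006 on the plus strand and Nr1d1 on the minus strand, and their spans share 1075 bp at chr11:98767932-98769006. In the GENCODE M21 transcripts that match the 2 counted for Thra, 263 exonic bases (chr11:98768157-98768419) are shared between the last exon of the 10-exon Thra transcript and the last exon of Nr1d1. They make up 10.73% of that Thra transcript and 9.67% of the Nr1d1 transcript. The matched Thra transcripts are 2452 and 2246 bases long, and the mean length deposited for Thra (2480.66 to 2484.80 bases) is above both. The counted transcripts thus differ in length from the matched ones, and these shares need not hold for them. The 10-exon transcript encodes 492 residues, the length of TRα2, a form whose altered C-terminal end does not bind hormone. The 9-exon transcript encodes 410 residues, the length of the hormone-binding receptor TRα1, ends upstream at base 98765111 and shares 0 bases with Nr1d1. Over 197 bases (chr11:98768223-98768419) both strands are coding. This double-coding stretch with the Nr1d1 stop codon, shown because a read from it can belong to either gene, is the Thra sequence on the plus strand of GRCm38 from base 98768220 to base 98768419, and the capitals mark the 3 bases complementary to the stop codon of Nr1d1.
Thra exon 10 over Nr1d1: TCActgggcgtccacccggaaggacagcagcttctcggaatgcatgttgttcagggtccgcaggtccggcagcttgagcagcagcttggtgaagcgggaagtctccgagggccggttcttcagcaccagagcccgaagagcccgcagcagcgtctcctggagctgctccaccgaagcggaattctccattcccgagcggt

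**Figure D2:**
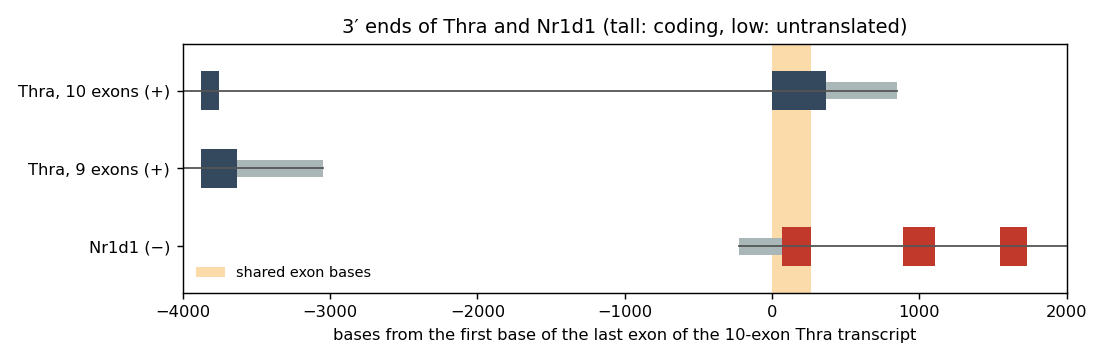
Exons at the 3′ ends of Thra (10-exon and 9-exon transcripts, plus strand) and Nr1d1 (minus strand), in bases from the first base of the last exon of the 10-exon Thra transcript (x axis); tall boxes are coding, low boxes untranslated, lines introns. The shaded 263 bases are exonic in both genes, and the 9-exon Thra transcript ends before them.

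The deposited counts show that reads were divided between these genes. Expected counts are estimates that need not be whole, and Thra was the only one of the 8 genes whose count was not whole (to within 0.005) in any library. The sum of Thra and Nr1d1 was whole in 6 of 6 libraries, at 10586, 9195 and 10259 counts in r1r2V and 12314, 11647 and 11141 counts in V. Nr1d1 took 31.9, 29.7 and 24.6% of that sum in r1r2V, against 8.16, 9.53 and 8.07% in V. Thus the share given to Nr1d1 was higher in every r1r2V library than in any V library.

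Summed to 1 feature, the pair had 614, 528 and 598 CPM in r1r2V and 695, 656 and 707 CPM in V. The 3 r1r2V libraries were still below all 3 V libraries, at means of 580 ± 45.7 CPM in r1r2V and 686 ± 26.4 CPM in V (SD, n = 3 each). Thra alone was 214 CPM lower in r1r2V, Nr1d1 was 108 CPM higher, and the sum was 106 CPM lower. Fitted as 1 feature, the pair had a log2 fold change of -0.24 and was not called. The sources do not say whether counting used strand, and how much of the difference in Thra lies in reads of the shared bases was not tested.

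The deposited mean transcript length of Thra, which moves when the estimated mix of its transcripts moves, also separated the groups. It was 2480.69, 2480.66 and 2482.19 bases in r1r2V and 2484.80, 2484.37 and 2484.66 bases in V, a difference of -3.43 bases. All 3 r1r2V values were below all 3 V values. Of the matched transcripts only the 10-exon one shares bases with Nr1d1. The length therefore cannot be taken as independent of the division of reads, and its link to that division was not tested. The tables do not list the lengths of the single transcripts, so the shift cannot be turned into shares of TRα1 and TRα2. Among the other 7 genes the length was the same number in every library for 6. Thrb is 1 of these, at 5997 bases, although it has 2 counted transcripts. For Slco1c1, which also has 2 counted transcripts, the length ran from 3209.81 to 3209.97 bases with groups that overlap.

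**Figure D3:**
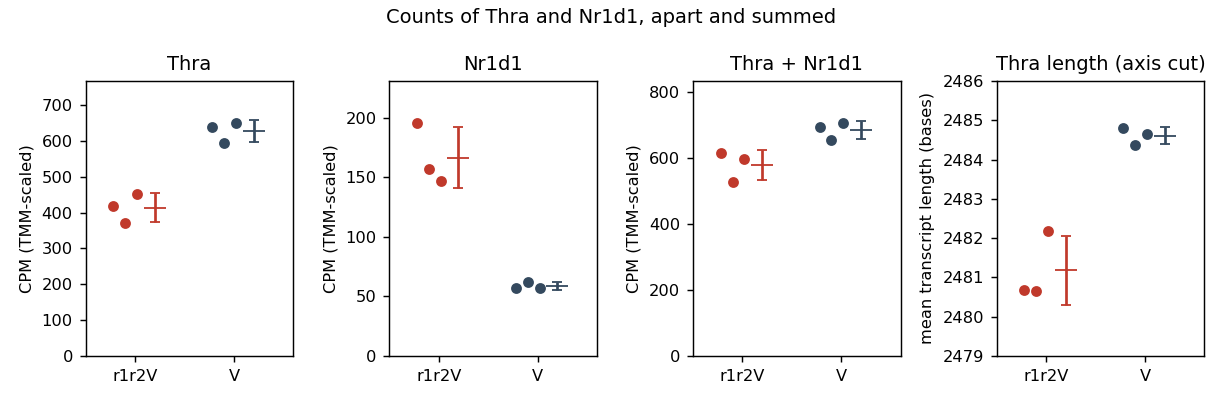
Thra, Nr1d1 and their sum in CPM (first 3 panels, y axis from 0), and the deposited mean transcript length of Thra in bases (last panel, y axis not from 0), in the r1r2V libraries (red, left) and the V libraries (dark, right), with mean and SD. Thra is lower and Nr1d1 higher in all 3 r1r2V libraries; the sum is lower by 106 CPM on average, and the length by 3.43 bases.

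Thrb encodes TRβ, the receptor that carries hormone feedback on the hypothalamus and pituitary. Its levels were 28.5, 29.3 and 31.7 CPM in r1r2V and 24.8, 29.1 and 22.8 CPM in V. The groups overlap, since V replicate 3 is above replicate 1 of r1r2V, and the gene was not called (log2 fold change 0.22, SE 0.10). Thrb also neighbours a targeted gene: on chr14:17659225-18040097 it points toward Nr1d2, 164 kb away on the other strand, and shares no bases with it. Its count was whole in every library. Counted per length, as FPKM (fragments scaled by transcript length and library size), Thrb stood at 4.88, 4.92 and 5.32 in r1r2V and 4.18, 4.97 and 3.88 in V. Thra stood at 178, 154 and 188 FPKM in r1r2V and 267, 250 and 273 FPKM in V. Summed over its transcripts, Thra was thus the more abundant mRNA by far in both groups. That value includes the transcript of TRα2, which does not bind hormone, and carries the division of reads with Nr1d1. The part of TRα1 in it is not known, so hormone-binding receptor mRNA was not compared.

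The receptors, like the REV-ERB proteins, bind DNA motifs built on the letters AGGTCA. RefSeq promoter windows of GRCm38.p6 were found for 5 of the 8 genes (Thrb with 2 starts, Dio2, Dio3, Slco1c1 and Klf9). AGGTCA on either strand was present within 250 bases before the start in 1 of these 6 windows, and in 14% of all 32851 promoters searched. The match, shown for its place in a receptor gene, lies 184 bases before a start of Thrb at chr14:17660764-17660793 on the plus strand, with the motif in capitals.
Thrb promoter: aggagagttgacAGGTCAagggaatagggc
A match of this kind is a description of the letters and not a binding site. The direct repeats of AGGTCA spaced by 4 bases (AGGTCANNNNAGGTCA) were in 0.0152% of promoters, and those spaced by 2 bases (AGGTCANNAGGTCA) in 0.00913%. Neither was in any of the 6 windows. Also searched were the E-box CACGTG (in 6.02% of promoters) and the cAMP response element TGACGTCA (in 1.55%). Each was in 1 of the 6 windows, the E-box in a Thrb window and the cAMP response element in that of Dio2.

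Hr encodes Hairless, a corepressor that binds thyroid hormone receptors and is itself induced by T3 in the developing rodent brain. It had 55.5, 50.2 and 72.7 CPM in r1r2V and 29.5, 35.7 and 36.5 CPM in V. The lowest r1r2V library was above the highest V library, and replicate 5 was the highest of the r1r2V libraries. The mean rose to 59.5 ± 11.8 CPM in r1r2V, against 33.9 ± 3.81 CPM in V (SD, n = 3 each), a log2 fold change of 0.81 (SE 0.14), or 1.76-fold. Without replicate 5, the library with the highest fibroblast marker sum and the most Pmch, the log2 fold change was 0.64 and Hr was still called. The call of Hr was lost without replicate 1 of r1r2V and without any 1 of the V libraries, with log2 fold changes between 0.72 and 0.86 (0.85 without V replicate 3). Hr lies at chr14:70554056-70573548, on the same chromosome as Nr1d2 but 52.3 Mb away, and its counts were whole, so no sharing of reads was seen for it.

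Dio2 encodes the deiodinase that converts T4 to T3, in glia and in the tanycytes that line the third ventricle. It had 7.14, 4.71 and 6.53 CPM in r1r2V and 5.76, 7.44 and 6.98 CPM in V. The groups overlap, with replicate 4 of r1r2V the lowest of the 6 libraries, and the log2 fold change was -0.13 (SE 0.18). Dio3 encodes the deiodinase that inactivates T4 and T3. It was close to the limit of what was counted, with 11, 8 and 6 counts in r1r2V and 16, 7 and 12 counts in V, and a log2 fold change of -0.50 (SE 0.41). At this depth the wide error spans no difference as well as a large one. Markers of tanycytes and ependymal cells, 8 genes, summed to 172 to 187 CPM in r1r2V and 182 to 215 CPM in V, and the groups overlap there too.

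Slco1c1 encodes OATP1C1, a T4 transporter of the blood-brain barrier and of astrocytes. It had 40.5, 41.8 and 50.2 CPM in r1r2V and 47.1, 49.6 and 52.7 CPM in V. The groups overlap because of replicate 5 of r1r2V, and the log2 fold change was -0.17 (SE 0.09) with it and -0.28 without it, not called in either case. The 7 endothelial markers summed to 280, 281 and 312 CPM in r1r2V and 290, 306 and 326 CPM in V. The 8 astrocyte markers summed to 2683 to 3177 CPM in r1r2V and 2831 to 2972 CPM in V. In each group the library with the most Slco1c1 also had the highest sum of both lists, and their part in the values of Slco1c1 was not tested. Crym encodes µ-crystallin, a cytosolic T3-binding protein. It had 1.97, 0.747 and 1.81 CPM in r1r2V and 0.846, 2.14 and 1.71 CPM in V, with at most 38 counts in a library. Each group had 1 library well below its other 2, and the log2 fold change was -0.05 (SE 0.41).

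Klf9 encodes a Krüppel-like transcription factor that T3 induces, and that glucocorticoids induce as well. It had 54.9, 61.8 and 58.0 CPM in r1r2V and 53.7, 61.8 and 59.4 CPM in V. The means were 58.2 ± 3.44 CPM in r1r2V and 58.3 ± 4.15 CPM in V (SD, n = 3 each), and the log2 fold change was -0.00 (SE 0.08). Both groups span nearly the same range. Hr and Klf9 are both known to respond to T3, and whether their fold changes differ was not tested.

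Per length, Thra led the 8 genes in both groups, at 173 ± 17.0 FPKM in r1r2V and 263 ± 11.5 FPKM in V (SD, n = 3 each), above 97.5% of the tested genes over all 6 libraries. Klf9 came next, at 18.3 ± 0.908 FPKM in r1r2V and 18.5 ± 1.40 FPKM in V. Slco1c1 followed at 14.1 ± 1.59 FPKM in r1r2V and 16.0 ± 0.925 FPKM in V. Slco1c1 and Klf9 overlap in V and are apart in r1r2V. Hr stood at 10.97 ± 2.12 FPKM in r1r2V, where its range overlaps that of Slco1c1, and at 6.28 ± 0.730 FPKM in V, where it is apart from it. Thrb came after Hr in both groups. Crym, at 1.30 ± 0.581 FPKM in r1r2V and 1.36 ± 0.575 FPKM in V, and Dio2, at 0.967 ± 0.205 FPKM in r1r2V and 1.06 ± 0.139 FPKM in V, overlap, and over all 6 libraries were above 14.4% and 11.4% of the tested genes. Dio3 was last, at 0.273 ± 0.0808 FPKM in r1r2V and 0.387 ± 0.150 FPKM in V, above 2.7% of them.

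No other tested gene of the pathway lists passed the threshold with all libraries. Of 62 other genes in 6 lists drawn up by function, 56 could be tested and 0 were called by edgeR, DESeq2 or limma-voom. Since edgeR called 0.416% of all genes tested, 0 of 56 is near that share, and nothing is read from it. At an unadjusted p under 0.05 there were 8 of the 56 (14.3%), 5 higher and 3 lower, against 7.58% of all genes tested. Groups did not overlap for 12 of the 56 (21.4%), against 14.5% of all genes tested, and the median log2 fold change was 0.03. The genes with such a p were Med1, Ncor1, Ep300, Klf10 and Ttr on the higher side and Slc7a5, Trh and Rora on the lower side, named after their values were seen, and their adjusted p-values by edgeR lay between 0.134 and 0.650.

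Among 14 partners of the receptors (the RXR dimer partners, the NCoR complex and the coactivators), the log2 fold changes ran from -0.18 to 0.21 with a median of 0.08. Med1, the Mediator subunit that contacts the hormone-bound receptor, had 48.2, 43.0 and 44.6 CPM in r1r2V and 39.8, 38.0 and 39.2 CPM in V (log2 fold change 0.21, SE 0.07; edgeR adjusted p = 0.496). Groups did not overlap for 4 of the 14, against 14.5% of all genes tested. Besides Med1, r1r2V was above V for Ncor1, the main corepressor (137 ± 6.36 CPM in r1r2V and 120 ± 12.1 CPM in V), and for Ep300, a histone acetyltransferase (69.7 ± 6.81 CPM in r1r2V and 61.6 ± 1.14 CPM in V). It was below V for Rxrb, a dimer partner, at 57.9 ± 4.87 CPM in r1r2V and 63.4 ± 1.21 CPM in V (SD, n = 3 each; log2 fold change -0.13, SE 0.08). Hdac3, the deacetylase of that complex and the list's most abundant mRNA, was at 44.9 FPKM in r1r2V and 51.1 FPKM in V on average, with groups that overlap.

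Among the 7 tested genes of hormone transport and metabolism the median log2 fold change was -0.02. Slco1a4, an organic anion transporter of brain capillaries and the most abundant by FPKM, had 69.2, 70.7 and 75.3 CPM in r1r2V and 77.1, 80.1 and 79.2 CPM in V (log2 fold change -0.14, SE 0.06; edgeR adjusted p = 0.660). Ttr, which encodes the T4 carrier transthyretin made by the choroid plexus, was at 2.79, 2.53 and 0.350 CPM in r1r2V and 0.677, 0.676 and 0.444 CPM in V. Replicates 1 and 4 of r1r2V were above every V library and replicate 5 was below every one, so the log2 fold change of 1.63 (SE 0.60) was not called with all libraries (edgeR adjusted p = 0.577). Without replicate 5 it was 2.12 and called (edgeR adjusted p = 0.0139, in a range of 0.0139 to 1.0 over 14 alternative fits), which is the only call among the 56 genes in any fit. Dio1 and Iyd were too low to test.

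In the hypothalamus-pituitary-thyroid axis, 5 of 7 genes could be tested, with a median log2 fold change of 0.03. Trh, the releasing hormone at the top of the axis and the most abundant of them, had 298, 294 and 270 CPM in r1r2V and 332, 294 and 378 CPM in V. The groups overlap narrowly at 294 CPM (log2 fold change -0.22, SE 0.09; edgeR adjusted p = 0.604).

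The 10 tested T3 response genes had a median log2 fold change of 0.02, 0 of them had an unadjusted p under 0.05, and in 0 of them were the groups apart. Over all genes tested these shares were 7.58% and 14.5%. Mbp, myelin basic protein and the most abundant, averaged 2547 ± 314 CPM in r1r2V and 2778 ± 579 CPM in V. Nrgn, the synaptic protein neurogranin, had the largest change of the list at -0.21 (SE 0.24), with 97.9, 55.1 and 131 CPM in r1r2V and 97.8, 125 and 106 CPM in V.

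Among 7 relatives and partners of Hairless (JmjC demethylases of its family and nuclear receptors it binds), the median log2 fold change was -0.01. Kdm3a, a histone H3K9 demethylase and the most abundant by FPKM though not by CPM, averaged 45.4 ± 3.65 CPM in r1r2V and 41.3 ± 0.793 CPM in V (SD, n = 3 each). Rora, an activator of clock genes at the sites that REV-ERB represses, was at 73.4, 72.6 and 73.3 CPM in r1r2V and 83.6, 93.6 and 73.5 CPM in V. Its groups are apart by a narrow margin, and it was not called (log2 fold change -0.19, SE 0.09; edgeR adjusted p = 0.650).

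Of 13 paralogs of Klf9, Klf10 differed most, while the median log2 fold change was 0.02. Klf10, a clock-linked transcription factor in liver, had 8.82, 10.3 and 10.4 CPM in r1r2V and 6.21, 6.93 and 5.46 CPM in V. All 3 r1r2V libraries were above all 3 V libraries, at a log2 fold change of 0.67 (SE 0.14), and the gene missed the threshold (edgeR adjusted p = 0.134, and 0.0575 to 0.634 over 15 alternative fits). Klf15, the most abundant paralog by FPKM, averaged 37.3 ± 1.64 CPM in r1r2V and 38.7 ± 4.20 CPM in V (SD, n = 3 each).

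**Figure D4:**
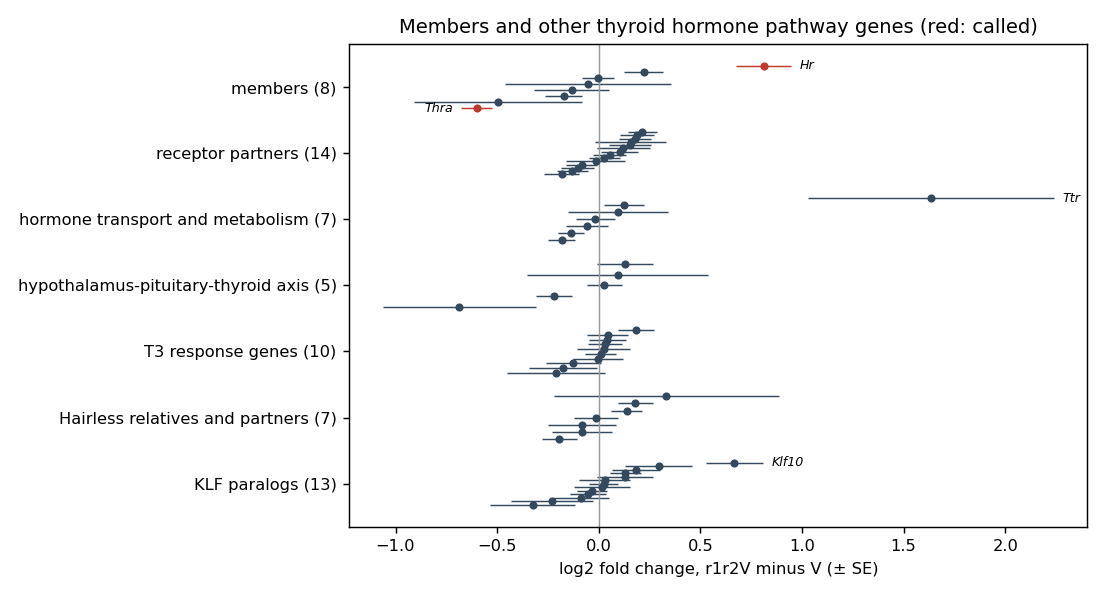
Log2 fold change, r1r2V minus V, with its SE (x axis) for the 8 genes (top row) and the 56 other tested thyroid hormone pathway genes by list (number tested in brackets). Thra at -0.60 and Hr at 0.81 are the only called genes (red); Klf10 at 0.67 and Ttr at 1.63 were not called.

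Since Thra and Thrb each lie beside a targeted gene, the other genes near Nr1d1 and Nr1d2 were examined in the same fit. Of 22 other tested genes that start within 500 kb of either, 0 were called by edgeR, DESeq2 or limma-voom. Over all genes tested edgeR called 0.416%, so 0 of 22 is near that share. Among the 22, 5 (22.7%) had an unadjusted p under 0.05, against 7.58% of all genes tested. The log2 fold changes of the 22 ran from -0.25 to 0.79, and the groups did not overlap for 7 of them (31.8%), against 14.5% of all genes tested. Near Nr1d1, 13 of 18 genes had a negative log2 fold change. The 5 whose groups did not overlap (Ormdl3, Psmd3, Msl1, Wipf2 and Smarce1, named after their values were seen) were all below V in r1r2V. These directions were not counted over all genes tested, and nothing is read from them. Near Nr1d2, 1 gene with groups apart was below V and 1 was above. The 4 tested genes near Nr1d2 all lie on its side away from Thrb, so these counts do not cover the Thrb side. On chromosome 11, Med24, a Mediator subunit gene 11.4 kb before Thra, averaged 59.0 ± 4.12 CPM in r1r2V and 63.6 ± 3.96 CPM in V (log2 fold change -0.11, SE 0.08). Msl1, 18.1 kb beyond Nr1d1, averaged 142 ± 3.97 CPM in r1r2V and 155 ± 4.40 CPM in V (log2 fold change -0.13, SE 0.06; edgeR adjusted p = 0.655). On chromosome 14, Rpl15, a ribosomal protein gene 28.7 kb beyond Nr1d2, averaged 404 ± 30.7 CPM in r1r2V and 349 ± 19.4 CPM in V (log2 fold change 0.21, SE 0.07; edgeR adjusted p = 0.528). On the other side of Thrb the nearest tested gene was Rarb, a retinoic acid receptor 577 kb away, at 8.06 ± 1.22 CPM in r1r2V and 6.45 ± 1.40 CPM in V.

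The genes whose pattern over the 6 libraries was most like those of Thra and Hr were found among 11787 genes that averaged 5 CPM or more. Likeness was the Euclidean distance between mean-centred log2 CPM values. For Thra these were Lbp (distance 0.245), Slc10a4 (0.248) and Fam107a (0.253), where a gene with no variation at all would be at 0.773. Fam107a had 139, 150 and 157 CPM in r1r2V and 223, 235 and 246 CPM in V, with each r1r2V library below each V library. For Hr they were Sult1a1 (0.360), Egr4 (0.432) and Cybrd1 (0.453), where a gene with no variation would be at 1.08. Sult1a1, a phenol sulfotransferase, had 12.1, 11.03 and 14.6 CPM in r1r2V and 7.67, 9.52 and 8.25 CPM in V. Egr4, an activity-dependent transcription factor, had 7.37, 5.17 and 7.52 CPM in r1r2V and 3.56, 3.78 and 3.30 CPM in V. These genes were picked by their likeness, so their group differences follow from the choice.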

How the data were processed

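Per the file headers, each library's deposited table gives an expected count, an FPKM value and a mean transcript length per gene. Per the submitters' processing notes, the build was mm10 and the tools included RSEM 1.2.12, Bowtie2 2.2.5, HISAT2 2.0.4, DESeq2, Cufflinks 2.2.1, StringTie 1.0.4 and GATK. The sources used here do not give their roles or whether strand was used. The authors' expected counts can divide reads between overlapping genes, and their FPKM values carry that division.

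Expected counts were rounded, filtered (filterByExpr, minimum count 10), TMM-scaled and tested with edgeR 4.0.16 (quasi-likelihood, R 4.3.3, threshold 0.05) without covariates. SE is the absolute log2 fold change over the root of F. CPM uses the scaled library sizes, whose depth limits genes such as Dio3 and Crym. Only the edgeR fit was checked on simulated data, which had the same spread in both groups. DESeq2 1.42.0 and limma 3.58.1 were alternatives, as were other scalings, filters, pseudocounts on FPKM, and leaving out each library. Each library counted as 1 sample, as labelled. Pairs within a group differed beyond counting noise, so none looked deposited in duplicate, which does not show that pools were independent. Chi-square per degree of freedom was 11.6 to 13.5 for pairs of r1r2V libraries and 3.83 to 4.56 for pairs of V libraries. The r1r2V libraries thus varied more, and the fit did not model a separate spread for each group.

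The members and lists were chosen with earlier results of these data known. The text names the 8 genes, Nr1d1, Nr1d2, per list the most abundant gene by FPKM and the gene with the largest change at 1 CPM or more, the tested genes flanking both receptor loci, and the 3 genes most like Thra and Hr. Any other gene was picked with its values in view. Gene positions are RefSeq GRCm38.p6; exons are GENCODE M21.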

Additional observations from a re-analysis of the deposited data

How the results depend on the processing

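Over all genes, 43 were called higher and 17 lower with edgeR, against 69 higher and 40 lower with DESeq2. Leaving out 1 library gave 19 to 52 higher and 7 to 24 lower calls. Pathway genes called numbered 0 to 1 with 1 library left out (1, Ttr, without r1r2V replicate 5), and genes near Nr1d1 and Nr1d2 numbered 0 in every fit. Thra was lower in every alternative that fitted it alone, from -0.67 to -0.53 on the log2 scale with 1 library left out. Its call was lost without V replicate 2 and without V replicate 4. The remaining alternative fitted the sum of Thra and Nr1d1, which was at -0.24 and not called. Hr was higher in all 15 alternatives, from 0.64 to 0.92 with 1 library left out. Its call held in 9 of them and was lost in 6: on log2(FPKM + 1) (0.71), on log2(FPKM + 0.1) (0.78), without r1r2V replicate 1 and without each V library. Leaving out libraries also removes residual degrees of freedom. The other 6 genes were called in none of their alternatives, and Dio2 (-0.26 to 0.02), Klf9 (-0.06 to 0.04) and Crym (-0.36 to 0.27) changed sign with 1 library left out. Dio3 dropped out of the test with a filter of 1 CPM in 3 libraries. The Thra length difference ran from -3.93 to -3.17 bases with 1 library left out, and was -3.39 bases when libraries were weighted by count. No paired analysis was possible because r1r2V and V have just 1 replicate number, 4, in common.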

Other observations

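Cga, the gene of the hormone alpha subunit that thyroid-stimulating hormone shares with other pituitary hormones, was at 0 CPM in all 3 r1r2V libraries. In V it was at 0.113 CPM in replicate 2, 17.97 CPM in replicate 3 and 0 CPM in replicate 4. The level in V thus rests on replicate 3, which was also the library with the most Pomc, at 303 CPM. Cga did not pass the filter on low counts. Tshb, the other subunit of thyroid-stimulating hormone, was at 0.0580, 0.287 and 0.117 CPM in r1r2V and 0.169, 0 and 0 CPM in V.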
